A study of Mus musculus with 6 samples.

Results

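Complement genes that fibroblasts make were followed in mouse lung fibroblasts (LFs) exposed to TGFβ. The 9 genes, C1ra, C1s1, C4b, C2, Masp1, C3, Cfb, Serping1 and Cd55, were chosen by their symbols with earlier results of these data known, out of 55364 genes listed. Their fold changes, intervals and calls from the fit over all genes are therefore given as a description, with no p-value, and support nothing. The libraries were 3 labelled WT and 3 labelled TKS5 KO, all from primary C57Bl6/J LFs grown to passage 2 or 3 from collagenase-digested lungs of mice 8 to 10 weeks old, starved of serum and given 10 ng/ml TGFβ1 for 24 h. No library came from unexposed LFs. Tks5 is the scaffold protein of podosomes and is encoded by Sh3pxd2a. The study's text describes its mutant LFs as Tks5+/-, with exon 11 removed from 1 allele in the whole animal by Cre driven by the CMV promoter, since mice without either allele are not viable. The sample labels' word, TKS5 KO, is used here for those libraries.

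Complement is a cascade of serum proteases that cut one another and coat surfaces with fragments of C3 and C4. In the classical pathway C1q binds a target and activates the proteases C1r and C1s, which cut C4 and C2, and in the lectin pathway the MASP proteases do so on sugar-bearing surfaces. In the alternative pathway C3 binds factor B, which then becomes the protease of a C3 convertase and adds further C3. Inhibitors hold these steps back, some of them in the fluid phase and others on the cell surface. The liver makes most of the plasma proteins, fibroblasts make many of the early components locally, and C1q comes mainly from macrophages. Interferons, interleukin-6 and interleukin-1 are known to raise many of the genes through STAT, C/EBP and NF-κB factors.

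Several of the genes are neighbours on the genome, given here on GRCm38. C4b, Cfb and C2 stand together on chromosome 17 in the class III region of the major histocompatibility complex, and C3 lies further along the same chromosome. C1ra and C1s1 stand end to end on chromosome 6 with 6901 bases between them. Of the 9 genes, 4 had a promoter in the RefSeq table for GRCm38.p6. The 250 bases before the RefSeq start are shown for C3, which had the lowest fold change of the 9 in the comparison below, and for the C1s1 and C1ra pair. For C1ra that start lies inside the gene as GENCODE M21 gives it, from chr6:124512405. Most of the C1ra window is thus within the annotated gene. Letters in capitals match the C/EBP motif TTGCNNAA on either strand.
C3, chr17:57228137-57228386, reverse strand: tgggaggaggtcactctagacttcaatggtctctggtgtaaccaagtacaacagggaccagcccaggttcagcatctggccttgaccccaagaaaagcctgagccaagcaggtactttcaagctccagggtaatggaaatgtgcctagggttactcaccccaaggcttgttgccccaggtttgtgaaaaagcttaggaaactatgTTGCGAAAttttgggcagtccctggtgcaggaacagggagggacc
C1s1, chr6:124542360-124542609, reverse strand: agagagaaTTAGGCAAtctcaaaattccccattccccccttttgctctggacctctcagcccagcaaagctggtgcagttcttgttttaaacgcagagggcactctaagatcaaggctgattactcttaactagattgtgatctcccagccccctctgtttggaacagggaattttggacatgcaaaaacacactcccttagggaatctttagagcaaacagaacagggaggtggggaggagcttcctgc
C1ra, chr6:124512371-124512620, forward strand: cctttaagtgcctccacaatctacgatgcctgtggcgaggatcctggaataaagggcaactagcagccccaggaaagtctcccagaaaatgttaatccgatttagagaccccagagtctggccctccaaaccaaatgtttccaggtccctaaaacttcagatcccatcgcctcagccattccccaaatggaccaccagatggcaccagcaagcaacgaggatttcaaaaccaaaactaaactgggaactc
The match in C3 lay 45 to 38 bases before the start, and the match in C1s1 lay 242 to 235 bases before it and read on the opposite strand. Among 32536 promoter windows of the same length, 9.57% held this motif. None of these windows, nor that of Cd55 (chr1:130462745-130462994), held a GAS element (TTCNNNGAA, in 7.04% of all windows), an interferon-stimulated response element (in 2.98%), the κB consensus (in 3.92%), an AP-1 motif (TGANTCA, in 6.73%) or TATAAA (in 12.3%), each searched on both strands. A second start of C1s1, with a window that overlaps the one shown, held no match to any of the 6 motifs. GC made up 64% of the Cd55 window, against 52% in C3, 49.6% in C1ra and 48% in C1s1.

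The reads of QuantSeq come from the 3′ end of each transcript, and the libraries held 1344507 to 2369882 counts. At that depth 3 counts, the floor set here for counts near 0, stand for 1.11 to 1.93 CPM, the counts divided by TMM-scaled library sizes as edgeR gives them. The 10346 genes with enough counts went into edgeR's quasi-likelihood test, and called means a fold change of 1.2 or more either way with an adjusted p below 0.05. In all, 44.9% of the genes tested were called, 22.8% higher and 22.1% lower in the TKS5 KO libraries. Sh3pxd2a itself had 205, 190 and 284 counts in WT and 238, 258 and 260 in TKS5 KO libraries (log2 fold change 0.29, SE 0.20, adjusted p = 0.249 by edgeR), so that each direction given here rests on the labels. Fibroblast markers were present in all 6 libraries, with Col1a1 at 2970 to 6429 counts. Xist had 0 counts in every library, while the Y-linked Ddx3y had 146 to 210 in WT and 19 to 25 in TKS5 KO. Other Y-linked genes overlapped between the groups in CPM. Eif2s3y had 14, 13 and 35 counts in WT and 26, 7 and 13 in TKS5 KO. Uty had 4, 15 and 23 and then 6, 3 and 6, and Kdm5d 2, 9 and 5 and then 3, 8 and 2. Nnt had 47 to 107 counts in WT and 18 to 36 in TKS5 KO. WT replicate 3 stood apart by its macrophage genes, described further on. As these are bulk samples, fewer cells of a type and less RNA per cell cannot be told apart.

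Of the 9 complement genes, 8 were kept for the test and 7 were called lower in the TKS5 KO libraries, against 22.1% of all genes tested. Cd55 was tested and not called, and C2 had too few counts to be kept. The number called higher was 0 by edgeR, by DESeq2 and by limma-voom, and 0 at an unadjusted p under 0.05 by each of the 3. The median log2 fold change of the 8 was -1.97, beside -0.046 for all genes tested. C4b passed the filter on low counts through its WT libraries, and C3 stood near the limit in TKS5 KO, so a count among the genes kept says nothing by itself. All 3 TKS5 KO libraries were below all 3 WT libraries for C2 and for 7 of the 8 tested genes, as they were for 27.6% of all genes tested. Summed over the 9 genes, the level was 1583, 1669 and 1088 CPM in the WT libraries and 256, 197 and 188 CPM in the TKS5 KO libraries, in the order of replicates, or 1447 ± 313 against 213 ± 36.9 (SD, n = 3 each).

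**Figure D1:**
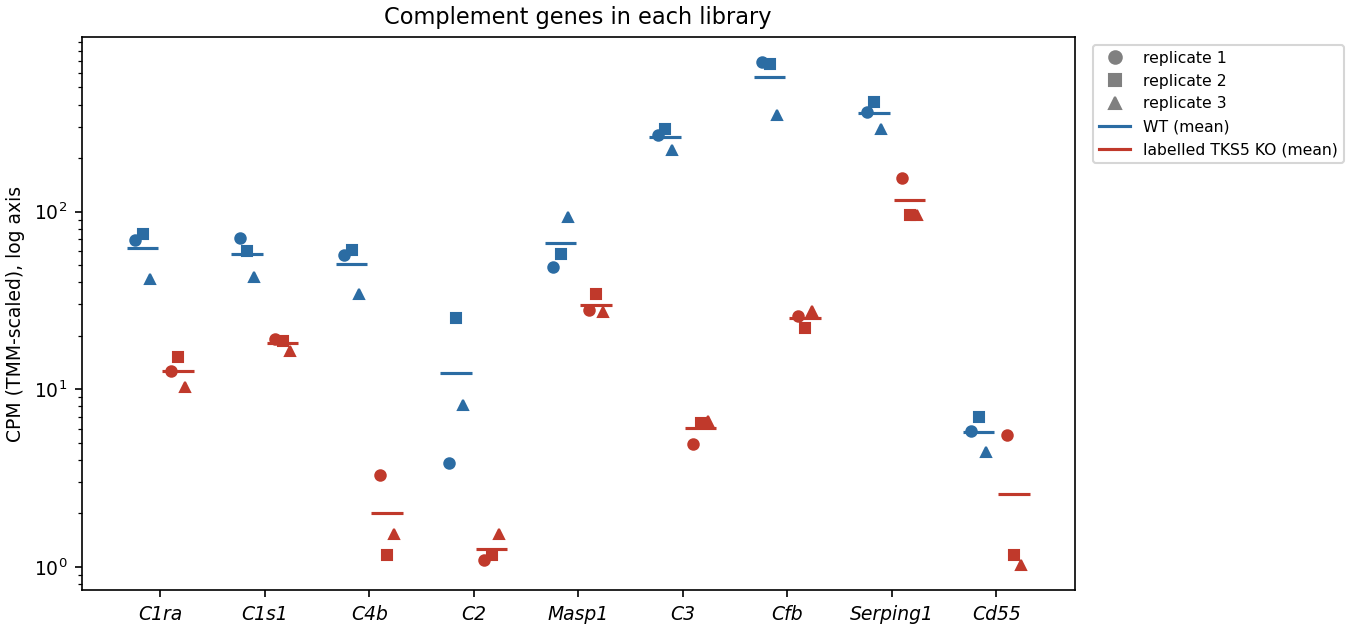
Level of each of the 9 complement genes in CPM, on a log axis, with 1 point per library, the shape giving the replicate number and the line the mean of 3 libraries. WT libraries (blue) lie above TKS5 KO libraries (red) for each gene except Cd55, where TKS5 KO replicate 1 (5.49 CPM) lies among the WT libraries.

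C3 is the central component that all pathways cut. Its counts in WT replicates 1, 2 and 3 were 418, 547 and 600, whereas TKS5 KO replicates had 9, 11 and 13. Its level was 261 ± 35.7 CPM in WT and 6.01 ± 0.933 CPM in TKS5 KO (SD, n = 3 each), with every WT library far above every TKS5 KO library. The log2 fold change was -5.43 (SE 0.27, 95% interval -5.99 to -4.86), or 43.0-fold lower, the 9th lowest of the 10346 genes tested. C3 lies at chr17:57203970-57228136 on the reverse strand (ENSMUSG00000024164).

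Cfb encodes factor B, the protease of the alternative pathway convertase, and lies at chr17:34856374-34862518 on the reverse strand (ENSMUSG00000090231). It had 1081, 1262 and 940 counts in WT and 47, 38 and 54 in TKS5 KO libraries. In CPM the WT libraries stood at 696, 675 and 349, so that replicate 3 was the lowest of the 3 and yet well above the TKS5 KO mean of 25.2 ± 2.74 (SD, n = 3). The log2 fold change was -4.50 (SE 0.28, 95% interval -5.08 to -3.92), a 22.6-fold lower level and the 24th lowest of all genes tested.

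The counts of Cfb cannot be told apart from those of 2 genes at its end. Nelfe, a subunit of the negative elongation factor, runs towards Cfb on the opposite strand (chr17:34850391-34856372) and stops 1 base from it, within the 50 bases by which the authors extended the counted regions. Gm20547 (chr17:34856412-34882042) lies on the strand of Cfb and shares exons with both Cfb and C2. Nelfe had 956, 1133 and 852 counts in WT and 42, 34 and 53 in TKS5 KO libraries, and Gm20547 had 877, 1048 and 792 and then 42, 27 and 46. The ratio of Nelfe to Cfb stayed between 0.884 and 0.981 over the 6 libraries, and that of Gm20547 to Cfb between 0.711 and 0.894. Their fold changes of -4.45 and -4.50 (log2) are hence not separate measurements from that of Cfb. The strand used in counting is not given in the sources used here.

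**Figure D2:**
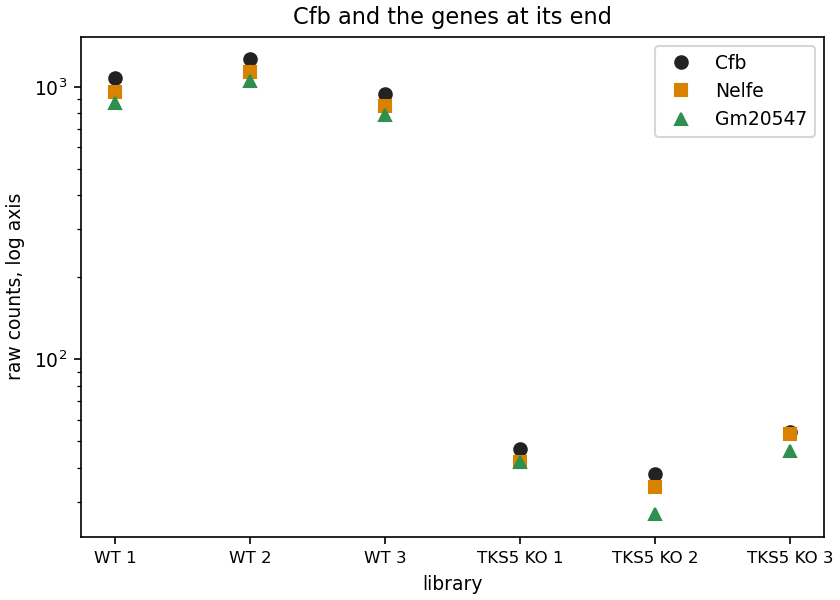
Raw counts, on a log axis, of Cfb and of Nelfe and Gm20547, which meet or overlap its end, in each of the 6 libraries. The 3 genes move together in each library, with Nelfe at 0.884 to 0.981 of Cfb.

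C4b encodes complement component C4, the target of C1s and of the MASP proteases, and lies at chr17:34728380-34743882 on the reverse strand (ENSMUSG00000073418). It had 88, 113 and 93 counts in WT and 6, 2 and 3 in TKS5 KO libraries, or 50.5 ± 14.0 against 2.00 ± 1.13 CPM (SD, n = 3 each). The groups were far apart, and the log2 fold change was -4.60 (SE 0.40, 95% interval -5.42 to -3.78), 24.3-fold lower and the 19th lowest of all genes tested. Its near-identical copy C4a, which could take reads from it, had 6, 4 and 2 counts in WT and 0, 1 and 0 in TKS5 KO libraries.

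C2, the protease partner of C4, lies at chr17:34862604-34898265 on the reverse strand (ENSMUSG00000024371), with its 3′ end 85 bases from Cfb. Its counts were 6, 47 and 22 in WT libraries and 2, 2 and 3 in TKS5 KO libraries. In CPM the WT libraries ran from 3.86 in replicate 1 to 25.1 in replicate 2, the largest ratio of highest to lowest WT library among the 9 genes, and the TKS5 KO libraries from 1.10 to 1.54. With C2 at no more than 3 counts in each TKS5 KO library, its WT mean was 7.53 times the level that 3 counts stand for there. Without WT replicate 2 it was 3.65 times that level. Such ratios include neither counting error nor the spread between libraries. Without a filter on low counts C2 was called lower.

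Among the other genes tested between C4b and C2 and in the 50 kb on either side (chr17:34678380-34948265), which were looked up after the values were seen, Stk19, Dxo, Skiv2l and Ehmt2 were not called. Neu1, the lysosomal sialidase, was called lower (log2 fold change -1.19, adjusted p = 5.42e-04 by edgeR). The 5 genes had log2 fold changes of -1.19 to -0.31, all smaller in size than those of C4b and Cfb.

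C1r and C1s, the protease pair of the C1 complex, are encoded by C1ra and C1s1. C1ra (chr6:124512405-124523443, forward strand, ENSMUSG00000055172) had 108, 140 and 113 counts in WT and 23, 26 and 20 in TKS5 KO libraries, or 62.1 ± 17.7 against 12.7 ± 2.49 CPM (SD, n = 3 each). Its log2 fold change was -2.28 (SE 0.28, 95% interval -2.87 to -1.69), 4.86-fold lower. C1s1 (chr6:124530345-124542359, reverse strand, ENSMUSG00000038521) had 110, 112 and 115 counts in WT and 35, 32 and 32 in TKS5 KO, or 57.8 ± 14.2 against 18.1 ± 1.51 CPM (SD, n = 3 each). Its log2 fold change was -1.66 (SE 0.26, 95% interval -2.20 to -1.13), 3.16-fold lower. No TKS5 KO library reached the lowest WT library for either gene. There were 1.02, 0.80 and 1.02 counts of C1s1 for each count of C1ra in WT, and 1.52, 1.23 and 1.60 in TKS5 KO libraries, so that the ratio was higher in each TKS5 KO library than in any WT library. Of the near copies, C1rb had 9, 13 and 10 counts in WT and 3, 1 and 1 in TKS5 KO. Its WT mean was 3.33 times the level of 3 counts in the TKS5 KO libraries (2.89 times without WT replicate 2). C1s2 had at most 3 counts in any library.

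Masp1, a protease of the lectin pathway, was the exception among the 9 genes in its WT values. The gene (chr16:23449417-23520815, reverse strand, ENSMUSG00000022887) had 76, 108 and 250 counts in WT and 51, 59 and 53 in TKS5 KO libraries. Its level in WT replicate 3, 92.7 CPM, was 1.74 times the mean of the other 2 WT libraries, whereas C1ra, C1s1, C4b, C3, Cfb, Serping1 and Cd55 were each lowest in that library among the WT 3. The means were 66.5 ± 23.1 and 29.9 ± 4.05 CPM (SD, n = 3 each), and the log2 fold change was -1.17 (SE 0.25, 95% interval -1.70 to -0.64), 2.25-fold lower. Without WT replicate 3 it was -0.84. Rtp4, which overlaps the 5′ end of Masp1 on the opposite strand, had 30, 75 and 72 counts in WT and 11, 4 and 9 in TKS5 KO libraries.

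Serping1 encodes the C1 inhibitor, which inactivates C1r, C1s and the MASP proteases, and lies at chr2:84765387-84775444 on the reverse strand (ENSMUSG00000023224). It had 564, 777 and 790 counts in WT and 283, 164 and 187 in TKS5 KO libraries, or 357 ± 61.6 against 116 ± 34.3 CPM (SD, n = 3 each). TKS5 KO replicate 1, at 155 CPM, was the highest of its group and still below the lowest WT library, at 293 CPM. The log2 fold change was -1.63 (SE 0.23, 95% interval -2.10 to -1.15), 3.09-fold lower. For each count of C1s1, Serping1 had 6.31 ± 1.03 counts in WT and 6.35 ± 1.54 in TKS5 KO (SD, n = 3 each), with overlapping values.

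Cd55, a surface regulator that speeds the decay of the C3 convertases, lies at chr1:130439027-130462744 on the reverse strand (ENSMUSG00000026399). It had 9, 13 and 12 counts in WT and 10, 2 and 2 in TKS5 KO libraries, or 5.73 ± 1.25 against 2.56 ± 2.54 CPM (SD, n = 3 each). The groups overlapped, and the log2 fold change of -1.12 (SE 0.58, 95% interval -2.32 to 0.07) was not called. It was called lower without TKS5 KO replicate 1 (log2 fold change -2.25), and also with all 6 libraries scaled by their totals alone (-1.52). Its near copy Cd55b had no count.

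**Figure D3:**
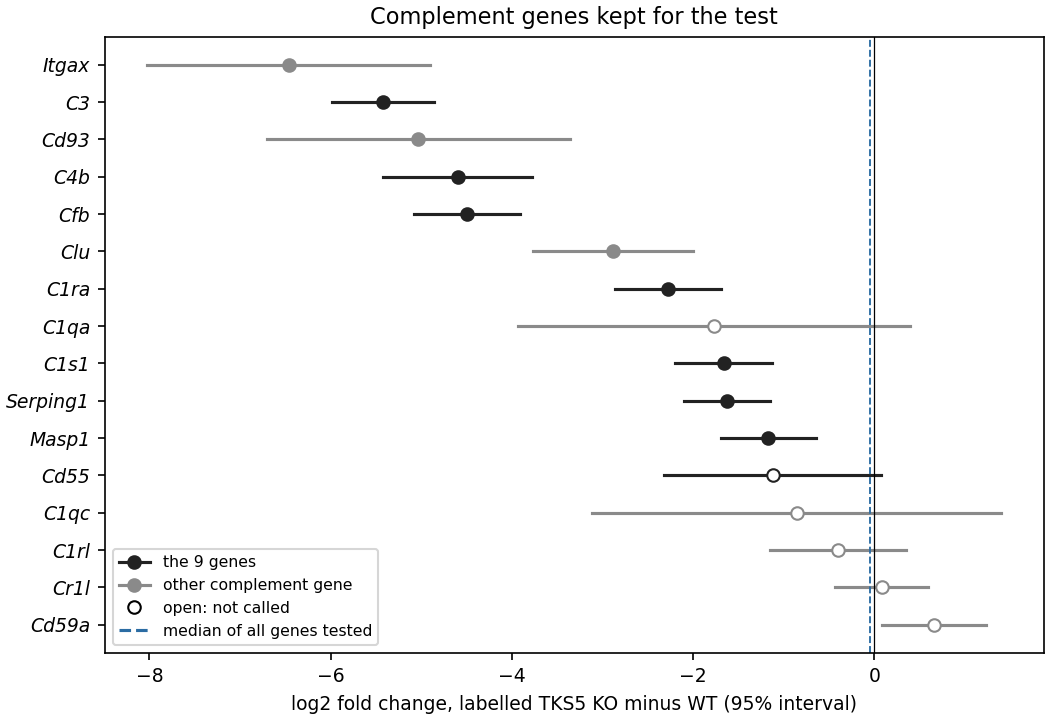
Log2 fold change (TKS5 KO minus WT) with its 95% interval for 16 complement genes kept for the test, the listed genes in black and others in grey, with open points for genes not called and a dashed line at the median of all genes tested (-0.046). C3, C4b and Cfb lie between -5.43 and -4.50, and C1ra, C1s1, Serping1 and Masp1 between -2.28 and -1.17; fitted values of Itgax and Cd93 depend on TKS5 KO libraries at 3 counts or fewer.

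The make-up of the complement counts also differed between the genotypes. As reads come from transcript ends and were not divided by length, these shares compare a gene between libraries and not genes with one another. Over the 55 genes of the complement list, the libraries held 2715, 3425 and 3924 counts in WT and 674, 506 and 587 in TKS5 KO. Cfb took 33.5% ± 8.43 of these counts in WT and 7.89% ± 1.16 in TKS5 KO libraries (SD, n = 3 each). The share of C3 was 15.6% ± 0.366 in WT and 1.91% ± 0.496 in TKS5 KO. Serping1, in contrast, made up 21.2% ± 1.33 of the counts in WT and 35.4% ± 5.70 in TKS5 KO, and Masp1 4.11% ± 1.97 and 9.42% ± 2.07. The ratio of C3 to Cfb was 0.387, 0.433 and 0.638 in WT and 0.191, 0.289 and 0.241 in TKS5 KO libraries, without overlap. Together the 9 genes held 90.6%, 91.1% and 74.8% of the complement counts in the WT libraries and 69.1%, 66.4% and 62.5% in the TKS5 KO libraries.

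**Figure D4:**
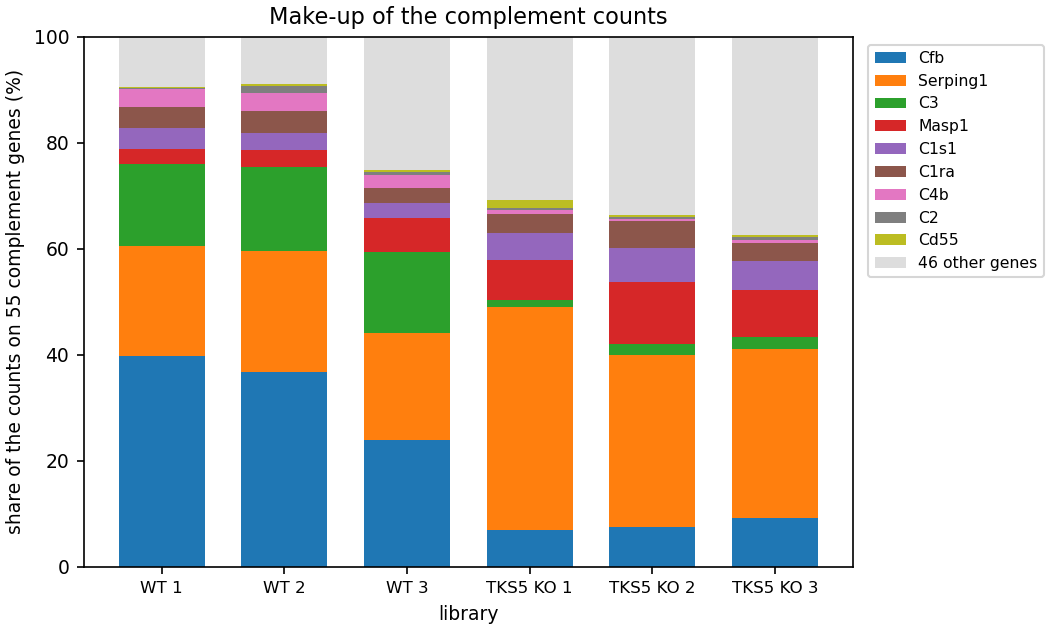
Share of the counts on 55 complement genes taken by each of the 9 genes in each library, as stacked bars in percent, with the 46 other genes in pale grey. Cfb and C3 together take the larger part in WT replicates 1 and 2, while Serping1 is the widest band of the 9 in each TKS5 KO library.

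The other 46 genes of the complement list were fewer in reads: 34 had a count, 12 had none and 9 were kept for the test. Of these 9, 4 were called lower, Clu, Itgax and Cd93 among them, beside 22.1% of all genes tested, and 5 were not called. The number called higher was 0 by edgeR, DESeq2 and limma-voom, with 1 gene, Cd59a, higher at an unadjusted p under 0.05 by each. The 9 had a median log2 fold change of -1.77, and 3 of them had at most 3 counts in every TKS5 KO library. These 3 passed the filter on low counts through their WT libraries alone, and Clu too was kept through its WT libraries. The share called therefore says nothing by itself.

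Among the fluid-phase regulators beside Serping1, Clu was called lower. This gene, encoding clusterin, which blocks the membrane attack complex, had 34, 45 and 124 counts in WT and 12, 2 and 9 in TKS5 KO, or 30.6 ± 13.3 against 4.12 ± 2.74 CPM (SD, n = 3 each). Its log2 fold change was -2.88 (SE 0.43, adjusted p = 1.54e-05 by edgeR), with WT replicate 3 the highest library. Clu passed the filter on low counts through its WT libraries, so its call says little by itself. Cfi and C4bp had at most 2 counts in any library.

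None of the membrane regulators tested was called by edgeR, DESeq2 or limma-voom, while at an unadjusted p under 0.05 Cd59a was higher by each and Cd55 lower by limma-voom alone. The summed level of all 8, Cd55 among them, was 57.3, 60.5 and 57.1 CPM in WT and 72.4, 63.2 and 72.2 CPM in TKS5 KO libraries. Cd59a, which stops assembly of the membrane attack complex, had 23, 45 and 46 counts in WT and 57, 41 and 65 in TKS5 KO, or 18.6 ± 4.84 against 29.5 ± 4.88 CPM (SD, n = 3 each). Its log2 fold change of 0.66 (SE 0.28) was not called (adjusted p = 0.0564 by edgeR). Cr1l, the rodent Crry that inhibits the C3 convertases, had 54, 52 and 92 counts in WT and 49, 65 and 73 in TKS5 KO. Its log2 fold change was 0.08 (95% interval -0.43 to 0.59, adjusted p = 0.813 by edgeR), which was -0.35 with libraries scaled by their totals alone and -0.02 without WT replicate 2. The other 5 had at most 7 counts in any library.

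Most of the WT counts of C1q and of several receptors came from WT replicate 3. C1qa, a chain of C1q, had 16, 11 and 129 counts in WT and 14, 7 and 15 in TKS5 KO libraries, a log2 fold change of -1.77 (SE 0.88, adjusted p = 0.157 by edgeR) that was -0.29 without WT replicate 3. C1qc had 3, 3 and 59 counts in WT and 10, 11 and 7 in TKS5 KO, with a log2 fold change of -0.86 (SE 0.95, adjusted p = 0.504 by edgeR) that turned to 1.51 without WT replicate 3 and was 0.35 with the authors' normalized counts. C1qb, not kept for the test, had 5, 10 and 69 counts in WT and 2, 5 and 0 in TKS5 KO. Neither tested C1q gene was called.

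Itgax encodes the α chain of complement receptor 4. It had 25, 22 and 96 counts in WT against 0, 0 and 1 in TKS5 KO libraries (adjusted p = 7.17e-07 by edgeR). Its WT mean was 12.9 times the level of 3 counts in the TKS5 KO libraries, or 8.47 times without WT replicate 3. Cd93, an endothelial and myeloid receptor once described as a C1q receptor, had 16, 11 and 65 against 0, 0 and 2 counts (adjusted p = 4.43e-05 by edgeR). Its WT mean was 8.16 times the level of 3 counts, or 4.92 times without WT replicate 3. Itgax and Cd93 passed the filter on low counts through their WT libraries alone, so a call lower was the only one within reach. Itgb2, the shared β chain of receptors 3 and 4, had 9, 8 and 66 against 1, 0 and 1 counts and was not kept for the test. With WT replicate 3 left out its WT mean was 3.06 times the level of 3 counts in the TKS5 KO libraries. The receptor of the C3a fragment, C3ar1, had 6, 9 and 38 against 0, 2 and 1 counts.

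The remaining components were near the limit of the depth. C1rl, a C1r-like protease, had 12, 34 and 36 counts in WT and 17, 17 and 21 in TKS5 KO libraries (log2 fold change -0.40, SE 0.36, adjusted p = 0.385 by edgeR). Cfd, factor D, which cuts factor B, had 0, 2 and 5 counts in WT and 9, 7 and 11 in TKS5 KO, the reverse order to Cfb, and was not kept for the test. It was called higher when no filter on low counts was used. Cfp, properdin, had 6, 2 and 35 against 4, 4 and 3 counts. The 7 terminal components had at most 2 counts in any library and 4 of them had none, so that changes in them were not detectable at this depth. In the lectin pathway, the genes other than Masp1 had at most 10 counts, reached by Masp2, whose last exon overlaps that of Tardbp on the opposite strand.

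**Figure D5:**
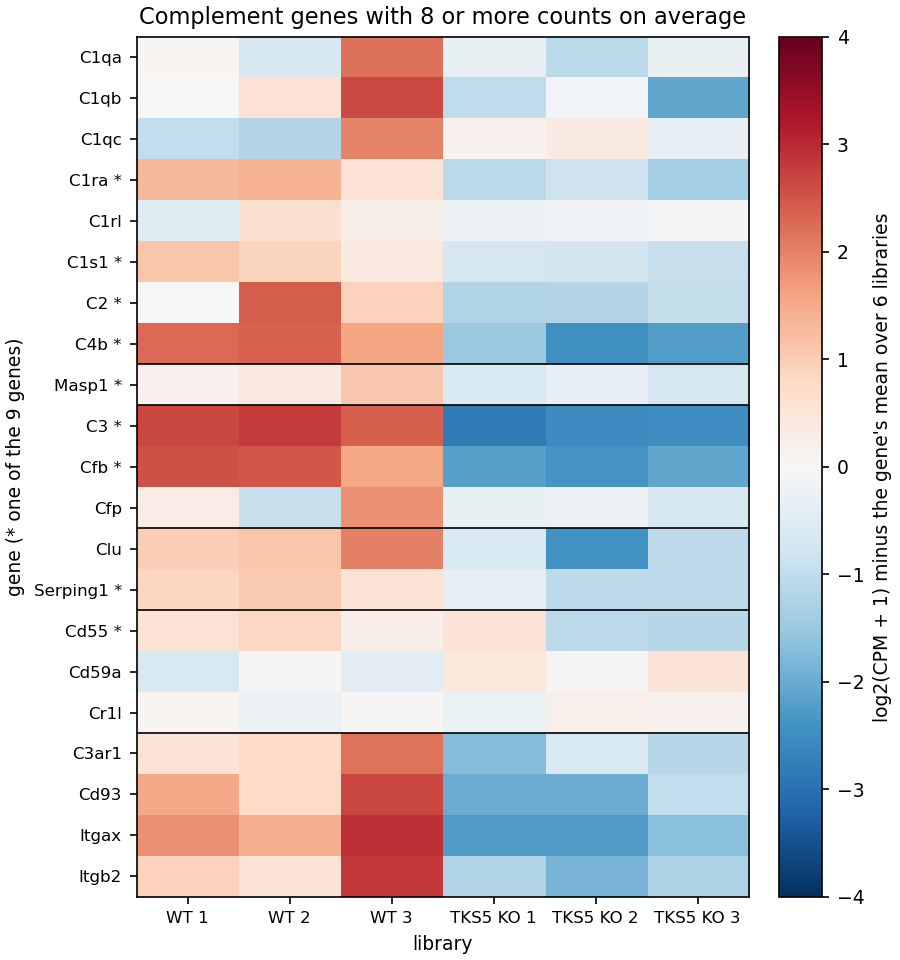
Level of 21 complement genes with at least 8 counts on average, as log2(CPM + 1) minus the mean of that gene over the 6 libraries (red higher, blue lower), ordered by role, with asterisks on the listed genes. C3, Cfb, C4b and C1ra are high in each WT library, while C1qa, C1qb, C1qc and the receptors are highest in WT replicate 3.

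Markers of other cells moved with the labels too. The 14 macrophage and other leukocyte markers summed to 409, 347 and 2094 CPM in the WT libraries and to 126, 138 and 140 CPM in the TKS5 KO libraries. Of these markers 9 were tested and 5 were called lower, beside 22.1% of all genes tested, among them Cybb (67, 66 and 449 counts in WT, and 1, 3 and 1 in TKS5 KO) and Cd68 (25, 32 and 232, and 1, 1 and 4), 5 were at 0 in all TKS5 KO libraries, Ptprc included, and the T and B cell markers Cd3e and Cd79a were at 0 in all 6. Cybb and Cd68 passed the filter on low counts through their WT libraries alone, so the share called says nothing by itself. Lyz2, which was not called, gave 192, 180 and 1298 CPM of the sums in WT and 76.3, 91.9 and 106 CPM in TKS5 KO. Csf1r, called lower, still had 24, 31 and 14 counts in TKS5 KO. Tyrobp had 21, 16 and 22 there and Cd14 had 6, 12 and 10, and neither was called. The summed leukocyte markers were 5.54 times as high in WT replicate 3 as in the mean of the other 2 WT libraries. The same ratio was 12.4 for C1qc, 5.91 for C1qa and 2.56 for Itgax. It was 0.79 for C3, 0.51 for Cfb, 0.59 for C4b, 0.58 for C1ra, 0.65 for C1s1 and 0.75 for Serping1. Without WT replicate 3 the log2 fold changes were -5.53 for C3, -4.76 for Cfb, -4.83 for C4b, -2.51 for C1ra, -1.85 for C1s1 and -1.76 for Serping1, each further from 0 than with it. Masp1 and Clu went the other way, with a ratio of 1.74 and 2.00 in WT replicate 3 and log2 fold changes of -0.84 and -2.45 without it, each nearer to 0. Leaving out WT replicate 3 does not remove the difference in leukocyte markers, as WT replicates 1 and 2 held 409 and 347 CPM of them. The part of leukocytes in the values of the complement genes, the 9 listed ones included, was not tested.

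The summed mesothelial and endothelial markers were lower in each TKS5 KO library than in any WT library. The 8 mesothelial markers summed to 31.6 to 39.3 CPM in WT and 6.14 to 22.5 CPM in TKS5 KO, with Upk3b and Upk1b, the only 2 tested, called lower, and with Calb2 the other way (0 counts in each WT library and 15, 1 and 2 in TKS5 KO) and Krt19 at mean levels of 1.44 CPM in WT and 2.01 CPM in TKS5 KO that overlapped. The 8 endothelial markers summed to 113 to 134 CPM in WT and 45.6 to 60.4 CPM in TKS5 KO, with 3 of 4 tested called lower, Kdr at 17, 17 and 28 counts in WT and 0, 0 and 2 in TKS5 KO, and Ramp2 (log2 fold change 0.32) not called. The 9 epithelial markers summed to 14.4 to 36.3 CPM in WT and 29.2 to 60.3 CPM in TKS5 KO, with 5 at 0 in all libraries and Ager, the only 1 tested, called higher (log2 fold change 1.82). In TKS5 KO that sum was Ager alone. Cdh1 went the other way, with 17, 8 and 58 counts in WT and 0 in each TKS5 KO library. Epcam and Foxj1, with at most 3 counts in any library, were also at 0 in TKS5 KO. The 6 smooth muscle and pericyte markers summed to 322 to 346 CPM in WT and 444 to 573 CPM in TKS5 KO, with 4 of 5 tested called lower and Cnn1 higher (341, 507 and 686 counts in WT, and 743, 902 and 1077 in TKS5 KO). Cnn1 alone stood at 219 to 271 CPM in WT and 408 to 551 CPM in TKS5 KO, so that sum follows Cnn1 and not the 4 called lower. Over all genes tested the shares were 22.1% lower and 22.8% higher. Upk3b, Upk1b, Kdr and the pericyte markers Cspg4 and Notch3 passed the filter on low counts through their WT libraries alone. The mesothelial, endothelial and smooth muscle and pericyte shares therefore say nothing by themselves. Of the 10 fibroblast markers, 5 were called, beside 44.9% of all genes tested. Pdgfrb (352, 345 and 367 counts in WT, and 199, 178 and 118 in TKS5 KO) and Fn1 (log2 fold change -1.55) were called lower and Pdgfra (0.69), Thy1 (1.93) and Vim (1.27) higher. The 10 markers together summed to 13811 to 15680 CPM in WT and 16793 to 19367 CPM in TKS5 KO. Much of that sum was S100a4, which was not called, at 8216 to 10764 CPM in WT and 8304 to 13110 CPM in TKS5 KO. The part of these cells in the levels of the complement genes was not tested.

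Of the 17 cytokines, receptors and transcription factors known to act on complement genes, all tested, 5 were called lower, 3 higher and 9 not called, with a median log2 fold change of -0.22. The 8 called are a share near the 44.9% of all genes tested. Among the lower ones were Cebpa, a C/EBP factor (log2 fold change -1.66, adjusted p = 0.00233), and the NF-κB subunit Rela (-0.65, adjusted p = 0.0156). Cebpa passed the filter on low counts through its WT libraries, so its call says little by itself. Il6st, the shared receptor chain of the interleukin-6 family, had a log2 fold change of -1.04 (adjusted p = 7.56e-04), and Jak2, a kinase of that pathway, one of -1.14 (adjusted p = 0.00533). Higher were Cebpd, with 84, 107 and 129 counts in WT and 216, 272 and 196 in TKS5 KO (1.25, adjusted p = 9.71e-05), the cytokine gene Il6 (0.79, adjusted p = 0.0188) and Stat3 (0.67, adjusted p = 0.0355). All these adjusted p come from edgeR over all genes tested. The summed level of the 17 was 763 to 881 CPM in WT and 728 to 875 CPM in TKS5 KO, with overlapping values.

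To find the genes with a pattern over the libraries most like that of C3, log2 CPM was centred on the mean of each gene over the 6 libraries and the root mean square difference from C3 was taken over 5184 other genes with at least 50 counts on average. The smallest difference was that of Hp, haptoglobin, an acute phase protein that binds haemoglobin (0.380), with 221, 256 and 371 counts in WT and 9, 7 and 5 in TKS5 KO libraries. Nelfe (0.510) and Gm20547 (0.519) followed, whose counts cannot be told apart from those of Cfb, and then Gpnmb, a glycoprotein of macrophages (0.760), and Saa3, an acute phase serum amyloid (0.803). Among the complement genes the difference was 0.493 for Cfb and 0.701 for C4b, and larger for C1ra (1.54), Serping1 (1.82), C1s1 (1.83) and Masp1 (2.11). With 6 libraries in 2 groups, this likeness mostly reflects the size of the difference between the groups.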

How the data were processed

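RNA of 3 libraries labelled WT and 3 labelled TKS5 KO was sequenced by QuantSeq on an Ion Torrent instrument. Reads were trimmed with Trim Galore and aligned to GRCm38 with HISAT2 and then Bowtie2 by the authors, who counted them with metaseqR2 on 3′ UTR regions, extended by 50 bases, and summed them per gene. The authors deposited these raw counts per gene, and a table of counts normalized with EDASeq and rounded, which is used here as a score and only in 1 alternative. No column of values was left unused (0). Nothing in the labels says that replicates came from separate cultures or animals, so p-values measure the spread between these libraries.

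Genes were matched to GENCODE M21 (55104 of 55364). Raw counts were tested with edgeR 4.0.16 under R 4.3.3 (low counts removed by filterByExpr, TMM scaling, glmQLFit with robust set) and the Benjamini-Hochberg adjustment over 10346 genes, 3 libraries against 3. SE and 95% intervals come from this fit, and CPM from the scaled library sizes. The script was tested on simulated data. Intervals cover counting error and the spread between libraries only, and the ratios to the level of 3 counts cover neither. Totals were 1344507 to 2369882 counts per library. Promoters are from RefSeq (GRCm38.p6), with no other sequence table of these genes used here.

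The members and lists were chosen with earlier results of these data known. Named are all 9 genes, the other complement genes called or with at least 10 counts on average, genes that overlap a member or end within 350 bases of its 3′ end, near copies, up to 4 called marker or inducer genes per list and direction, Sh3pxd2a, sex and substrain genes, and the 5 genes most like C3 (prior count 2). The genes C3ar1, Cfd, Cfp, Cfi, C4bp, Masp2, Ptprc, Calb2, Krt19, Epcam and Foxj1, below that level, Rela, Ramp2, Cdh1, S100a4, Lyz2, Tyrobp, Cd14 and the genes around C4b were added after their values were seen. Some genes that the rule names are not reported here. Alternatives were DESeq2 1.42.0, limma 3.58.1 with voom, RLE, upper-quartile and library-total scaling, the normalized counts with limma and a pseudocount of 1, no filter, at least 10 counts in every library, a correction for transcript length (loess span 0.5), the replicate number as a block, no fold change threshold, and each library left out in turn.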

Additional observations from a re-analysis of the deposited data

How the results depend on the processing

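Over the 17 alternatives, of 133 values of the 8 tested listed genes 131 kept their direction and their side of the threshold, 0 turned direction, and 2 of Cd55 passed it, with libraries scaled by their totals (-1.52) and without TKS5 KO replicate 1 (-2.25). The listed genes called were 5 of 5 tested with at least 10 counts in every library, where C3, C4b and Cd55 are no longer tested, 8 of 9 without a filter and 7 to 9 when a library was left out. Genes called over the whole table were 3705 to 5306, and 3853 to 4595 with a library left out. With library totals as the only scaling, the median over all genes (log2) went from -0.046 to -0.47, with 1362 higher and 3944 lower, against 2356 and 2286. The other complement genes called, 4, were 13 without a filter (12 lower, and Cfd higher, of 34), 0 of 3 with at least 10 counts in every library (edgeR, 0 lower and 1 higher at an unadjusted p under 0.05), and 5 to 8 with a library left out: 7 without WT replicate 1, 7 without WT replicate 2, 5 without WT replicate 3, 8 without TKS5 KO replicate 1, 8 without TKS5 KO replicate 2 and 7 without TKS5 KO replicate 3. More genes are tested in these fits, 10 to 14 of the 46. Cd59a was called higher with RLE scaling (0.69), without WT replicate 2 (0.88) and without TKS5 KO replicate 2 (0.82). Directions turned for C1qc without WT replicate 3 (1.51) and with the normalized counts (0.35), and for Cr1l with library totals (-0.35) and without WT replicate 2 (-0.02), none of them called (-1.31 to 1.51 for C1qc and -0.017 to 0.28 for Cr1l with a library left out); the cause was not tested. Same-numbered libraries did not deviate together (r = -0.001, -0.064 and 0.082 over 10346 genes). With the replicate number as a block the calls were 4668 genes in all, 7 listed genes and 5 other complement genes, C1qa (-1.45) being the one added. Depth limits C2, Cd55, the terminal components and most receptors.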
